A study of Mus musculus and Homo sapiens with 4 samples.

Results

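Chaperones help other proteins fold, and these messages were followed by ribosome profiling. In this method the RNA pieces that ribosomes shield from nuclease are counted along each transcript. The set holds 16 transcripts, of 288251 listed over both species, chosen by a fixed list of Ensembl identifiers. The list has no rule on a measured value, but it was drawn up with earlier results of these data known. All 16 were present. They stand for 6 genes in each species, of which 3 encode proteins made at the endoplasmic reticulum (ER): Hspa5, Hsp90b1 and Calr in mouse and their human counterparts. The other genes are Hspa8 and Hsp90ab1, whose products stay in the cytosol, and Hspd1, whose product enters mitochondria. The identifier list gives the gene names, since the counts carry identifiers only, and 0 of the 16 identifiers were found in the tables of gene names.

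The study has 4 libraries in 2 pairs, each group with 1 library. Both mouse libraries came from E14 embryonic stem cells (ES cells) of 129/Ola background, cultured free of feeder cells in the presence of LIF, a cytokine that holds them in the undifferentiated state. The emetine library came from cells exposed for 60 s, at a dose the labels do not give, and the cycloheximide library from cells given 100 µg/ml for 60 s. Both HEK libraries (human embryonic kidney line) came from cells in DMEM with 10% serum. In the bound library assembled ribosomes were captured on streptavidin through a tag on the large subunit, and the input library had no capture. Emetine binds the small ribosomal subunit and cycloheximide the large one, and both stop elongation. The pairs address whether footprints shift with the inhibitor and whether they travel with the tagged subunit.

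Total counts over transcripts were 188700177 with emetine, 342552347 with cycloheximide, 30208713 in the bound library and 17446956 in the input. Coding counts were 78702902, 163107357, 15411358 and 7631840 in the same order. Isoforms repeat each other's reads, so these sums are not numbers of reads. No p-value exists with 1 library a group, and each interval is an exact two-sided 95% interval that covers counting error only. A pair may or may not stem from 1 culture or lysate; the labels are silent on this. A footprint count joins the amount of message with the ribosomes on it, and fewer cells and less RNA per cell cannot be told apart. Markers of ES or HEK cells were not checked, because identifiers could not be paired with names.

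An ER chaperone carries a signal peptide at its front end. As this peptide leaves the ribosome, the signal recognition particle brings ribosome and message to the Sec61 channel of the ER membrane, so the protein is threaded into the ER while it is made. Messages for HSPA8 and HSP90AB1 are translated on ribosomes in the cytosol, and HSPD1 is also made there before import into mitochondria. HSPA5 (BiP) is the HSP70 of the ER, HSP90B1 (GRP94) its HSP90, and CALR (calreticulin) binds calcium and the sugar chains of new glycoproteins. HSPA8 (HSC70) is the constitutive HSP70 of the cytosol, HSP90AB1 its constitutive HSP90, and HSPD1 (HSP60) the chaperonin of the mitochondrial matrix.

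Genes of ER chaperones are known to be induced together when unfolded proteins gather in the ER, through the ER stress response element, at which ATF6 acts with NF-Y. The element reads CCAAT, then 9 bases of any kind, then CCACG. It was sought on both strands of RefSeq promoter windows (GRCm38.p6, 250 bases before and 50 after each start). Since the element is already known from genes of ER chaperones, matches in them describe their promoters and test nothing. Windows were matched by symbol for 4 of the 6 mouse genes: Hspa5, Hsp90b1, Calr and Hspd1. None was found for Hspa8 or Hsp90ab1, so no cytosolic chaperone was searched. The stretches below are the parts of the Hspa5 and Hsp90b1 windows that hold a match, with 30 bases on either side, and show the element in its forward and reversed sense. Capitals mark the matches, and each reads 5′ to 3′ on the strand of its gene.
Hspa5, chr2:34771995-34772073, plus strand: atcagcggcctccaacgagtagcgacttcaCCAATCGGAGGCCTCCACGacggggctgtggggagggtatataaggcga
Hsp90b1, chr10:86705503-86705686, minus strand: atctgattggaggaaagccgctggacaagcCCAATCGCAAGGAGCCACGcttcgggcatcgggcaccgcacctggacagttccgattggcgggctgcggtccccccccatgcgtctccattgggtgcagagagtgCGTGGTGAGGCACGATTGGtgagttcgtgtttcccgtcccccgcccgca

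The Hspa5 match was written in the forward sense and ended 46 bases before the start site. Hsp90b1 held 2 matches, a forward one that ended 193 bases before the start and a reversed one that ended 88 bases before it. Calr held 1 reversed match, which ended 143 bases before the start. The 2 windows of Hspd1 held 0 matches. Of all 32851 mouse windows, 39 (0.119%) held the element. Its first letters alone, CCAAT on either strand, lay in 37.4% of windows. These are matches of letters, not measured binding sites.

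The first comparison set emetine against cycloheximide in mouse coding regions. The median coding region with at least 100 summed reads was set to a log2 ratio of 0. On this scale the messages of all 3 ER chaperones had higher ratios than those of all 3 other chaperones. The median log2 ratio was -0.14 over the ER genes and -0.54 over the non-ER genes, a gap of 0.40, or 1.32-fold. The gap does not depend on the scaling, but the sign of the ER ratios does: scaled to total coding counts, all mouse ratios shift up by 0.24 and the ER median becomes 0.098. The median over 28604 coding regions was 0 by construction.

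Among the ER messages, Hspa5 had 35766 coding reads with emetine and 74565 with cycloheximide. That is a log2 ratio of -0.25 (interval -0.26 to -0.23). Hsp90b1 had 61137 coding reads with emetine and 116166 with cycloheximide, a log2 ratio of -0.11 (-0.13 to -0.099). Within the ER group Hspa5 was the lowest, and its interval met neither of the others. Calr had 29273 coding reads with emetine and 56692 with cycloheximide, a log2 ratio of -0.14 (-0.16 to -0.12). Scaled to total coding counts, these log2 ratios were -0.0086 for Hspa5, 0.13 for Hsp90b1 and 0.098 for Calr.

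The messages made outside the ER were lower with emetine under every scaling tried. Hspa8 had 162193 coding reads with emetine and 414276 with cycloheximide, a log2 ratio of -0.54 (-0.55 to -0.53). Hsp90ab1 had 155748 coding reads with emetine and 415787 with cycloheximide, a log2 ratio of -0.60 (-0.61 to -0.59). The mitochondrial chaperonin Hspd1 was closer to these than to the ER genes: it had 38773 coding reads with emetine and 97005 with cycloheximide, a log2 ratio of -0.51 (-0.53 to -0.49). RefSeq names 22 pseudogenes for Hspd1 and, by the same name match, 0 for the other 5 genes. The match finds only copies named after their gene, so 0 does not mean that no copies exist. The sources used here do not say how reads with several matches were counted, so counts of genes with near-identical copies are uncertain.

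No mouse gene of the set was 2-fold different, against 1.46% of all coding regions at least 2-fold higher with emetine and 1.19% at least 2-fold lower. At 1.5-fold, 1 of the 6 was lower, Hsp90ab1 (1.52-fold), against 7.46% of all coding regions. This call ends under other scalings, since the log2 ratio of Hsp90ab1 was -0.56 scaled to total counts and -0.37 scaled to total coding counts. Measured as a share of the coding reads of the 6 genes, the ER genes took 26.1% with emetine (26.0 to 26.3) and 21.1% with cycloheximide (21.0 to 21.1). Per 1000000 coding counts of the library the ER genes summed to 1603 with emetine and 1517 with cycloheximide, and the non-ER genes to 4532 and 5684.

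**Figure D1:**
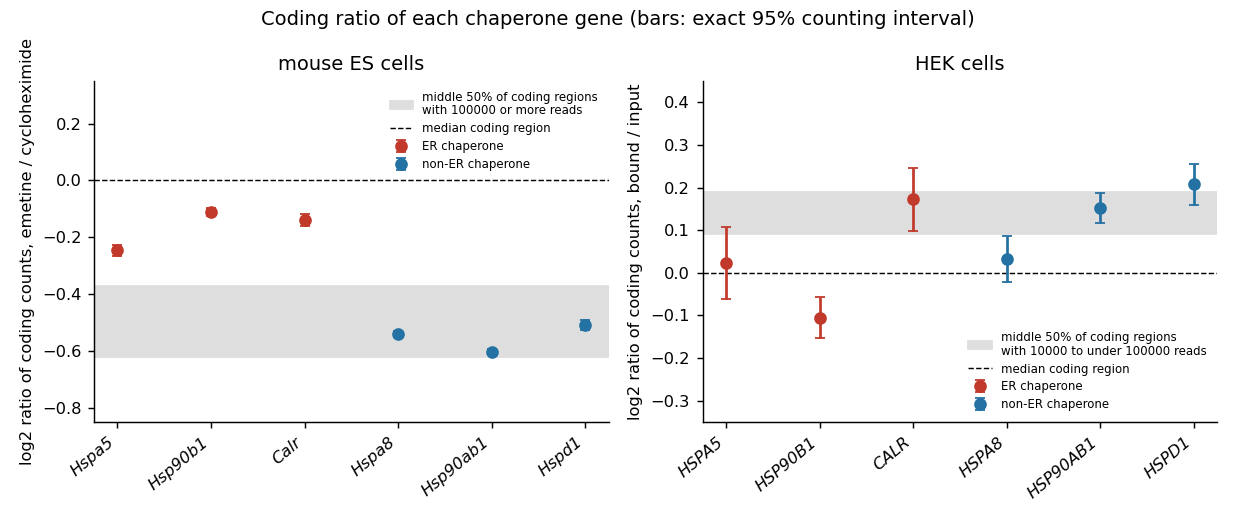
Log2 ratio of coding counts for each chaperone gene, emetine over cycloheximide in mouse ES cells and bound over input in HEK cells, scaled to the median coding region (dashed line). Bars are exact 95% counting intervals. The grey band holds the middle 50% of coding regions with 100000 or more summed reads in mouse and 10000 to under 100000 in HEK. Calr, HSPA5 and CALR had fewer reads than the regions of the band. The mouse ER genes lie between -0.25 and -0.11 and the non-ER genes between -0.60 and -0.51, while scaled to total coding counts the ER median is 0.098; the HEK groups overlap.

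Across all coding regions the ratio between the inhibitors was lower where reads were more numerous, and the cytosolic chaperones have the most coding reads of the set. Summed over the pair, and not per length, these were 576469 for Hspa8 and 571535 for Hsp90ab1, against 85965 to 177303 for the ER genes. Isoforms count as separate regions here and in the ranges that follow, so counts of regions are not counts of genes. Over the 250 coding regions with 100000 or more summed reads the median log2 ratio was -0.52, with quartiles of -0.62 and -0.37. Hspa8, Hsp90ab1 and Hspd1 were near this median, with 99, 75 and 134 of the 250 below them, while 211 lay below Hspa5 and 230 below Hsp90b1. Calr fell in the next range, from 10000 to under 100000 reads, whose median was -0.18.

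Hspd1 is the non-ER gene that overlaps the ER genes in abundance. Its 135778 summed reads lie between the 110331 of Hspa5 and the 177303 of Hsp90b1, and its log2 ratio was below both. Over 605 coding regions with 50000 to under 200000 summed reads, a range chosen after the values were seen, the median was -0.39 and the quartiles were -0.53 and -0.20. In that range 419 regions lay below Hspa5, 495 below Hsp90b1, 485 below Calr and 186 below Hspd1. The ER genes were thus above the median of regions of like abundance, and Hspa5 was within the middle 50%. The part of abundance in the gap between the groups was not tested.

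**Figure D2:**
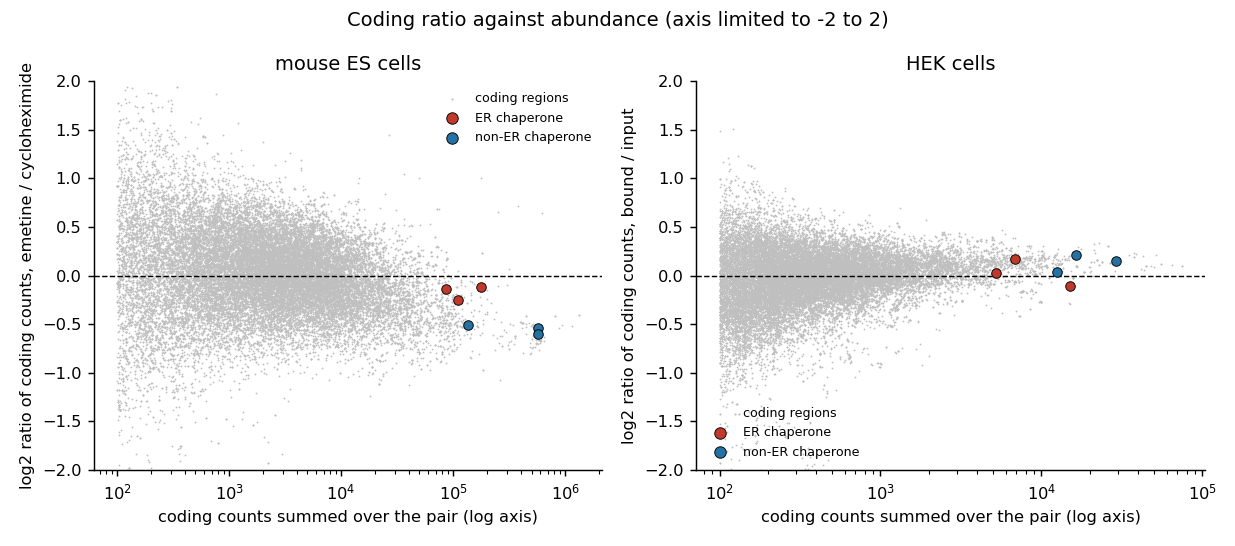
Log2 ratio of coding counts against coding counts summed over the pair (log axis), with each coding region of at least 100 reads in grey, ER chaperones in red and other chaperones in blue. The vertical axis ends at -2 and 2, which leaves out 25 mouse and 32 HEK regions. In mouse the ratio is lower at high abundance, and Hspd1 lies below the ER genes at a like number of reads.

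Reads in the 5' leader, the untranslated stretch before the coding region, were next set against coding reads within each transcript, a ratio free of the scaling between libraries. With emetine every mouse chaperone had more leader reads per coding read, as did 70.9% of all transcripts compared. The non-ER genes had the larger differences. Over the ER genes the median log2 difference was 0.55 and over the non-ER genes 1.18, against 0.39 over 10499 transcripts with at least 100 leader reads. All 6 genes passed that minimum. Of the 10499 transcripts, 43.9% lay below Hspa5, 58.3% below Hsp90b1, 61.1% below Calr and 64.8% below Hspd1. For Hsp90ab1 and Hspa8 these shares were 86.3% and 91.6%. The shares were not matched for abundance, and the coding ratio, which enters as denominator, was lower where reads were more numerous. The part of abundance in the leader differences was not tested. Leaders and coding regions have different lengths in each gene and no lengths were at hand, so the levels below are comparable between libraries and not between genes.

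Hspa5 had 2432 leader reads with emetine and 4169 with cycloheximide, or 68.0 and 55.9 per 1000 coding reads, which is 1.22-fold higher with emetine (1.15 to 1.28). Hsp90b1 had 805 leader reads with emetine and 1047 with cycloheximide, or 13.2 and 9.01 per 1000 coding reads, 1.46-fold higher (1.33 to 1.60). Calr had 230 and 295 in the same order, or 7.86 and 5.20 per 1000, 1.51-fold higher (1.26 to 1.801). Hspa5 thus showed the smallest leader difference of the set.

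Hspa8 had 993 leader reads with emetine and 961 with cycloheximide, or 6.12 and 2.32 per 1000 coding reads, 2.64-fold higher with emetine (2.41 to 2.89). Hsp90ab1 had 8284 leader reads with emetine and 9767 with cycloheximide, or 53.2 and 23.5 per 1000 coding reads, 2.26-fold higher (2.20 to 2.33). Hspd1 had 391 and 620 in the same order, or 10.1 and 6.39 per 1000, 1.58-fold higher (1.39 to 1.79). The cytosolic genes were the 2 of 6 that reached 2-fold, against 19.1% of all transcripts compared, and the intervals of Hspd1 and of the ER genes Hsp90b1 and Calr overlap.

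The coding reads that serve as denominator had lower ratios in the non-ER genes, as given above. Scaled to the median coding region, the ratio of leader counts themselves, emetine over cycloheximide, was 1.03 in Hspa5, 1.35 in Hsp90b1 and 1.37 in Calr. It was 1.82 in Hspa8, 1.49 in Hsp90ab1 and 1.11 in Hspd1. On this measure the ER and non-ER genes overlap, and the intervals of Hspa5 (0.97 to 1.08) and Hspd1 (0.97 to 1.26) hold 1.

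**Figure D3:**
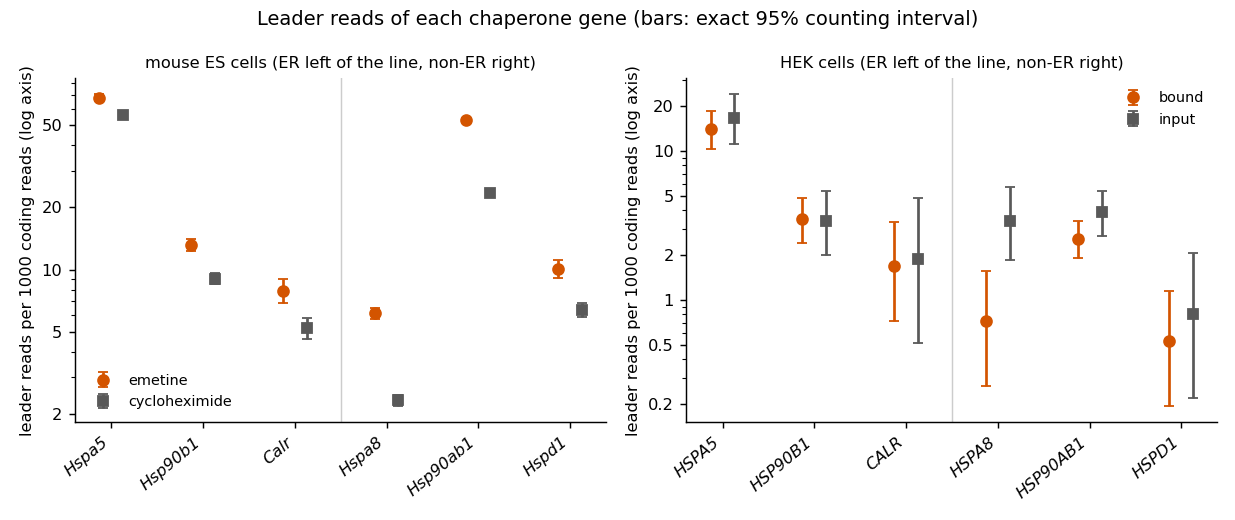
Leader reads per 1000 coding reads (log axis) of each chaperone gene in each library, with exact 95% counting intervals; for human genes with several listed transcripts the one with the most leader reads is drawn. Every mouse gene is higher with emetine than with cycloheximide, as are 70.9% of all transcripts compared. In HEK cells the intervals of bound and input overlap except for HSPA8.

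Reads in the 3' trailer, the stretch after the coding region, were few: at most 187 per library and gene, against at least 29273 coding reads. Summed over the ER genes there were 84 trailer reads with emetine and 74 with cycloheximide, or 0.67 and 0.30 per 1000 coding reads, 2.23-fold higher with emetine (1.61 to 3.08). Over the non-ER genes there were 347 and 282, or 0.97 and 0.30 per 1000, 3.20-fold higher (2.72 to 3.76). Of 5467 transcripts with at least 100 trailer reads, 63.7% were higher with emetine, and the median was 1.19-fold. Only Hspa8 and Hsp90ab1 passed that minimum.

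The ER genes differed among themselves in their trailers. Hspa5 had 4 trailer reads with emetine and 26 with cycloheximide, 0.32-fold per coding read (0.081 to 0.92), and was the single gene of the set with a lower value in emetine. Hsp90b1 had 65 with emetine and 32 with cycloheximide, 3.86-fold (2.49 to 6.09). Calr had 15 and 16, 1.82-fold (0.84 to 3.92), an interval that holds 1. Among non-ER genes, Hspa8 had 100 and 124 (2.06-fold, 1.57 to 2.70) and Hsp90ab1 187 and 122 (4.09-fold, 3.24 to 5.18); both are at least 2-fold, against 22.0% of transcripts compared. Hspd1 had 60 and 36 (4.17-fold, 2.71 to 6.49).

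Some reads of each transcript were counted in none of the 3 parts. They are the transcript count less the counts of the parts, and the counts do not show where in the transcript they lie. For Hspa5 there were 607 such reads with emetine and 1629 with cycloheximide, 0.78-fold per coding read (0.71 to 0.85), so Hspa5 again stood apart in direction. The other 5 mouse genes were higher with emetine: Hsp90b1 1.22-fold (1.14 to 1.31), Calr 1.40-fold (1.33 to 1.49), Hspa8 1.42-fold (1.39 to 1.46), Hsp90ab1 1.94-fold (1.88 to 1.997) and Hspd1 1.25-fold (1.19 to 1.30). The median over 14600 transcripts with all 3 parts was 1.33-fold, and 74.2% of them were higher with emetine. Of these transcripts 12.8% lay below Hspa5, 42.5% below Hsp90b1, 44.2% below Hspd1 and 82.2% below Hsp90ab1.

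**Figure D4:**
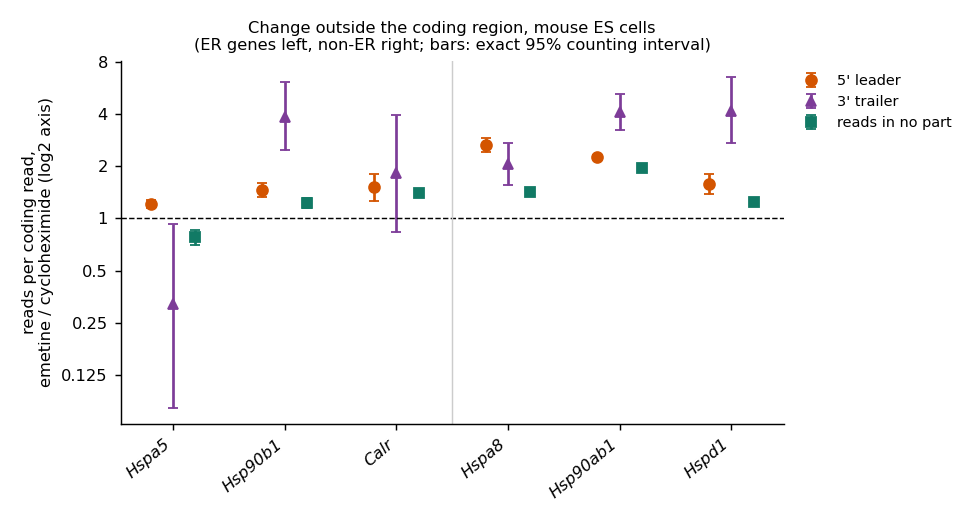
Reads per coding read, emetine over cycloheximide on a log2 axis, for each mouse gene, with exact 95% counting intervals. Shown are the leader, the trailer and the reads counted in none of the 3 parts, whose place in the transcript is not known. Leaders lie between 1.22 and 2.64 in all 6 genes, while Hspa5 lies below 1 for its trailer (0.32) and for reads in no part (0.78).

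The second comparison set bound against input in HEK coding regions. Here ER and non-ER chaperones overlapped, with log2 ratios between -0.11 and 0.21 around the median coding region. Over the ER genes the median log2 ratio was 0.023, and it was 0.15 over the non-ER genes, a gap of -0.13. The listed transcripts of HSPA8 (2), HSP90AB1 (3) and HSPD1 (2) share identical coding counts within each gene, so the 10 human transcripts give 6 sets of coding counts.

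HSPA5 had 3512 coding reads in the bound library and 1739 in the input, a log2 ratio of 0.023 (-0.061 to 0.11). HSP90B1 had 9820 bound and 5315 input coding reads, a log2 ratio of -0.11 (-0.15 to -0.057), which becomes 0.094 when scaled to total counts, a scaling that shifts all HEK ratios by 0.20. CALR had 4763 bound and 2126 input coding reads, a log2 ratio of 0.17 (0.098 to 0.25). The ER genes thus lay on both sides of the median, and the intervals of HSP90B1 and CALR did not meet.

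HSPA8 had 8402 coding reads in the bound library and 4130 in the input, a log2 ratio of 0.033 (-0.021 to 0.087). HSP90AB1 had 20010 bound and 9056 input coding reads, a log2 ratio of 0.15 (0.12 to 0.19). HSPD1 had 11421 bound and 4974 input coding reads, a log2 ratio of 0.21 (0.16 to 0.26). No gene of the set was 2-fold different, against 0.0528% of 26492 coding regions at least 2-fold higher in the bound library and 0.861% at least 2-fold lower.

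In this pair too the ratio moved with abundance. Over 197 coding regions with 10000 to under 100000 summed reads, several of them isoforms of the same gene, the median log2 ratio was 0.13, with quartiles of 0.092 and 0.19. HSP90B1 lay at the low end of that range, with 4 of the 197 below it, and HSPA8 had 19 below it. HSPD1 had 171 below it. HSPA5 and CALR had fewer reads and fell in the range from 1000 to under 10000, whose median was 0.070. The ER genes took 31.2% of the coding reads of the 6 genes in the bound library (30.9 to 31.6) and 33.6% in the input (33.0 to 34.1).

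Leader reads were sparse in HEK cells, and 0 of the 10 transcripts reached 100 summed leader reads, so none entered the background of 930 transcripts, whose median log2 difference was -0.21. HSPA5 had 49 leader reads in the bound library and 29 in the input, or 14.0 and 16.7 per 1000 coding reads, 0.84-fold (0.52 to 1.38). HSP90B1 had 34 bound and 18 input leader reads, 1.02-fold per coding read (0.56 to 1.92). CALR had 8 and 4, 0.89-fold (0.24 to 4.06). A difference was not detectable at this depth in any ER leader.

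The leader of HSPA8 (ENST00000534624) had 6 reads in the bound library and 14 in the input, or 0.71 and 3.39 per 1000 coding reads, 4.75-fold lower per coding read in the bound library (1.71 to 15.1). The second HSPA8 transcript (ENST00000227378) had 0 leader reads in both. For HSP90AB1 the leader counts differed between listed transcripts: ENST00000371646 had 51 bound and 35 input leader reads, 0.66-fold per coding read (0.42 to 1.05). ENST00000353801 had 45 and 35, 0.58-fold (0.37 to 0.93), and ENST00000371554 had 0 in both. The intervals of ENST00000371646 and ENST00000353801 overlap, so a difference in fold between them is not shown. HSPD1 had 6 bound and 4 input leader reads in ENST00000388968 (0.65-fold, 0.15 to 3.15) and 1 and 0 in ENST00000345042.

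With the transcript of each gene that has the most leader reads, the ER leaders summed to 91 reads in the bound library and 51 in the input, 0.91-fold per coding read (0.63 to 1.30). The non-ER leaders summed to 63 and 53, 0.54-fold (0.37 to 0.80), and the 2 intervals overlap. This choice of transcript was not planned beforehand. HEK trailers held at most 6 reads per library in any member and allow no comparison. Reads in no part were 1.24-fold to 1.27-fold higher per coding read in the bound library in the 3 transcripts of HSP90AB1, and 0.73-fold and 0.75-fold in those of HSPD1. In these 2 genes the intervals leave out 1, and in the other 4 they hold it. Over 2370 transcripts compared the median was 0.88-fold, and 33.2% were higher in the bound library. Of those transcripts, 24.9% and 27.6% lay below the HSPD1 transcripts, and 88.0% to 89.8% below those of HSP90AB1.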

How the data were processed

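The authors deposited raw read counts per transcript, coding region, 5' leader and 3' trailer, 1 table per library, per the file headers. CASAVA 1.8, Bowtie2 2.0.6, TopHat2 2.0.7, mm10 and hg19 are named in the submitters' processing notes without a role. For the counting tool, the annotation release and reads with several matches, details were not given in the sources used here. Members and lists were chosen with earlier results of these data known, and every member is named. A wider list of chaperones was not analysed here, because identifiers could not be paired with symbols. Counts per pair were scaled by the median over coding regions that had 100 or more reads in sum, and 0.5 scaled reads were added before log2 of ratios; folds with intervals carry no such prior. Intervals are exact: Clopper-Pearson for a ratio or share, conditional for leader, trailer and remaining reads per coding read (SciPy 1.17.1). The scale is taken as fixed. Class medians use the first listed transcript per gene; the leader minimum of 100 reads was not applied to members. Amplified copies of a footprint are not separate molecules. The labels name no batch. The calculations were tested on simulated coding counts with planted 4-fold changes and counting error alone. Smaller planted changes, leaders and trailers were not simulated. Alternatives were total counts, edgeR 4.0.16 TMM scaling, minimums of 30 and 500 reads, priors of 0 and 5, whole transcripts, other transcripts, identical rows once and thresholds of 1.5-fold and 4-fold.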

Additional observations from a re-analysis of the deposited data

How the results depend on the processing

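No paired analysis was possible because the groups hold a single library each. Scalings, read minimums and counting identical rows once shift all log2 ratios of a pair alike and cannot move the gap between ER and non-ER medians. With whole transcripts that gap was 0.395 in mouse, against 0.399 with coding regions, and -0.145 in HEK, against -0.130. Scaled to total counts, the ER and non-ER medians were -0.093 and -0.49 in mouse and 0.22 and 0.35 in HEK, and HSP90B1 turned to 0.094. Scaling to total coding counts was chosen after seeing the data; it turned the mouse ER median and Calr to 0.098 and Hsp90b1 to 0.13, and the non-ER median was -0.30. With a minimum of 500 reads the non-ER medians were -0.53 in mouse and 0.11 in HEK, and with whole transcripts -0.56 and 0.19. With whole transcripts the ER share was 25.5% with emetine and 21.0% with cycloheximide. At 1.5-fold, 1 mouse gene was lower in place of 0, and at that threshold Hsp90ab1 missed it scaled to total counts (-0.56) or total coding counts (-0.37). The mouse leader gap ran from -0.63 to -0.60. The HEK leader gap ran from 0.43 to 2.08, since in the main setting it rests on HSPA8 alone for the non-ER genes. The value of 0.43 came with the transcript of most leader reads per gene, an unplanned choice. With the first listed transcript of each gene, a minimum of 30 leader reads left no non-ER gene in HEK and 500 left none at all. Across all coding regions, 2-fold calls in mouse with a minimum of 30 reads were 913 higher and 947 lower, 80 and 79 with 500 reads, and 1090 and 163 scaled to total coding counts, in place of 418 and 341. In HEK they were 333 and 1051, 0 and 11, and, scaled to total counts, 87 and 131, in place of 14 and 228. Few leader and trailer reads limit the HEK values.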
